A study of Mus musculus with 6 samples.

Results

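The Cyp4 fatty acid omega-hydroxylases were examined by RNA sequencing of liver and adrenal tissue from mice labelled as Abcg8 knockouts. Abcg8 is a subunit of the transporter that exports plant sterols. The members were chosen by gene symbol: Cyp4a10, Cyp4a12a, Cyp4a12b, Cyp4a14, Cyp4a31, Cyp4a32, Cyp4f13, Cyp4f14, Cyp4v3 and Cyp4b1, which are 10 of the 33639 symbols in the deposited tables. All 10 were found, and 26 symbols in all begin with Cyp4 and a letter. Every mouse was labelled as a male whole-body Abcg8 knockout that was given a low sterol diet with 0.005% ezetimibe, a blocker of intestinal sterol uptake, until weaning. The mice then ate a low sitosterol, high sitosterol, ergosterol or stigmasterol diet for 12 weeks, and 1 mouse was sequenced per group: 4 livers, 1 per diet, and 2 adrenals, from the low and high sitosterol diets. No library is labelled wild-type, so every group carries the labelled knockout. Abcg8 itself had 51, 490, 394 and 788 estimated counts in the livers in the order low sitosterol, high sitosterol, ergosterol, stigmasterol, called diet order below, and 2 and 3 in the adrenals. Which part of the gene was deleted is not known from the sources used here, so these reads do not check the knockout. Sterol doses, and the hour and feeding state at collection, are not known from the sources used here. Because each group is 1 library, differences have no replicate check, and each ratio compares 2 libraries and not 2 diets.

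Omega-hydroxylases are membrane-bound cytochrome P450 enzymes that add a hydroxyl group to the end of a fatty acid chain. Alcohol and aldehyde dehydrogenases turn the product into a dicarboxylic acid, which peroxisomes then shorten. Several Cyp4a genes are classical targets of PPARA, a nuclear receptor for fatty acids that is active in the fasted liver, and Cyp4a12a is the main Cyp4a of male liver and kidney, where it makes the vasoactive lipid 20-HETE from arachidonic acid. The Cyp4f enzymes act on leukotrienes and other eicosanoids, Cyp4v3 is the mouse counterpart of the human enzyme whose loss causes Bietti crystalline dystrophy, and Cyp4b1 activates small foreign molecules in lung and other organs.

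The 6 Cyp4a members and Cyp4b1 lie in a single cluster on chromosome 4, and their sequences decide how far their values can be told apart. In GENCODE M21 on GRCm38 (mm10), Cyp4a12a lies at chr4:115299046-115332815, Cyp4a12b at chr4:115411624-115439034, Cyp4a10 at chr4:115518264-115533649, Cyp4a31 at chr4:115563649-115579015 and Cyp4a32 at chr4:115600969-115621602, all on the plus strand. Cyp4a14 (chr4:115486200-115496142) and Cyp4b1 (chr4:115624725-115647723) lie on the minus strand. Cyp4f14 (chr17:32905070-32917342) and Cyp4f13 (chr17:32924688-32947402) are neighbours on the minus strand of chromosome 17, and Cyp4v3 is at chr8:45304944-45333216, also minus. Cyp4a12b overlaps Gm12837 on the other strand. The kit keeps no strand information, so strand cannot separate reads of that pair. The overlap is one of whole gene spans, introns included. Gm12837 was not among the genes that share any stretch of 31 bases with Cyp4a12b transcripts. Cyp4v3 overlaps Gm45753 on its own strand, and 7.49% of the 31-base stretches of its transcripts also occur in Gm45753.

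The stretch of 60 coding bases around the cysteine codon that holds the heme iron is shown because it belongs to a conserved part of P450 enzymes and displays the 3 sequence groups of the cluster. It comes from GENCODE M21 transcripts on GRCm38, is written 5′ to 3′ along the coding strand, and has capitals where a base differs from Cyp4a10. Each stretch joins 2 exons, so the outer coordinates include an intron: chr4:115529493-115532564 for Cyp4a10, chr4:115328977-115331867 for Cyp4a12a and, on the minus strand, chr4:115487278-115489814 for Cyp4a14.
Cyp4a10: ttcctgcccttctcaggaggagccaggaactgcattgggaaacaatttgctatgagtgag
Cyp4a12a: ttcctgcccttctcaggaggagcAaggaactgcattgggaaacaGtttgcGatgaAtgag
Cyp4a14: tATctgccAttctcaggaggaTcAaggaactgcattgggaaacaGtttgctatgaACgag
Cyp4a31 and Cyp4a32 have the Cyp4a10 letters here without a change, and Cyp4a12b has those of Cyp4a12a. The Cyp4a12 pair differs from Cyp4a10 at 4 positions and Cyp4a14 at 8.

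The stretches of 60 coding bases that differ most within each group of close copies show how little separates them. Capitals mark the positions that differ within the group. The Cyp4a12 stretches join 2 exons (chr4:115326309-115326681 and chr4:115432561-115432934), and the others lie in 1 exon (chr4:115519640-115519699 for Cyp4a10, chr4:115565020-115565079 for Cyp4a31 and chr4:115602270-115602329 for Cyp4a32), all on the plus strand.
Cyp4a12a: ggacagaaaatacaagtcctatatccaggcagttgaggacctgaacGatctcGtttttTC
Cyp4a12b: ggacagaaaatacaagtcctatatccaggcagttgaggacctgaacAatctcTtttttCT
Cyp4a10: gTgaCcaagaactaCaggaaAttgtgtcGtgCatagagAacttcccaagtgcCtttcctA
Cyp4a31: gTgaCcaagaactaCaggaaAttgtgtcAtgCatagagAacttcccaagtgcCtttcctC
Cyp4a32: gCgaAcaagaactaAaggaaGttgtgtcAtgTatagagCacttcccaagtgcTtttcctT
Even here Cyp4a12a and Cyp4a12b differ at 4 positions, and over the whole coding sequence they differ at 23 of 1524 bases (98.5% identity). Of all stretches of this length, 49.97% are identical in the Cyp4a12 pair and 10.4% are identical in Cyp4a10, Cyp4a31 and Cyp4a32.

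The share of 31-base words of a gene's transcripts that another member also holds is a guide to ambiguity between them, though not itself a share of reads. It was 62.2% for Cyp4a12a, 62.9% for Cyp4a12b, 62.8% for Cyp4a32, 44.9% for Cyp4a10 and 30.3% for Cyp4a31. Cyp4a14 shared 0.506% of its words with other members, Cyp4f13 shared 1.40%, Cyp4f14 2.64%, and Cyp4v3 and Cyp4b1 none. With genes outside the 10 members, Cyp4b1 shared 11.7% (Cyp4b1-ps2 and Cyp4b1-ps1), and Cyp4v3 shared 7.49% (Gm45753). Cyp4f14 shared 6.77%, Cyp4f13 3.52% and Cyp4a14 1.67% with such genes. Values of Cyp4a12a against Cyp4a12b, and of Cyp4a10, Cyp4a31 and Cyp4a32 against each other, are therefore uncertain as a split, and their sums are given as well.

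**Figure D1:**
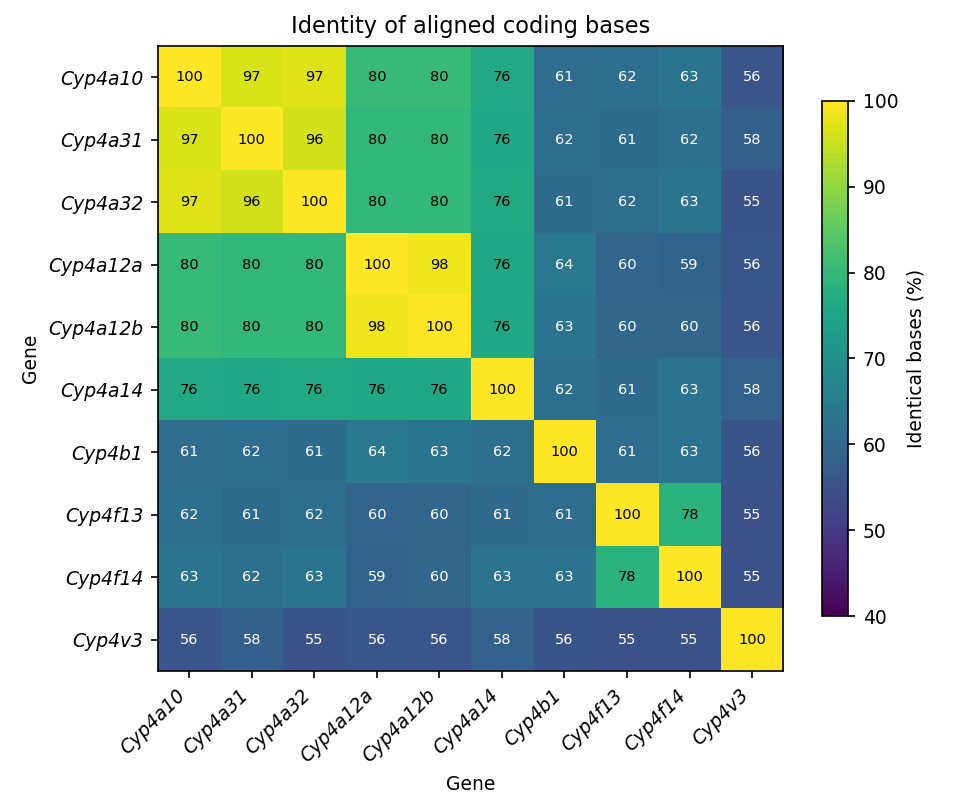
Percent of aligned coding bases that are identical for each pair of the 10 genes (rows and columns, GENCODE M21; colour and printed number give the percent). Cyp4a10, Cyp4a31 and Cyp4a32 form a block with pairs from 96.0% to 97.2%, Cyp4a12a and Cyp4a12b form another at 98.5%, and Cyp4a14 stands at 75.7% to 76.4% from every other Cyp4a gene.

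Levels between genes are given as deposited TPM, a length-scaled share of transcripts. Ratios between libraries use estimated counts scaled to the library total and a TMM factor, called scaled CPM, and the log2 ratio has an exact 95% interval that covers counting error only. A gene is called higher or lower where it differed at least 2-fold and the interval excluded equality. Library totals ran from 41546678 to 50573529 estimated counts. The TMM factors of the livers were 0.83, 0.95, 0.93 and 1.35 in diet order, so the stigmasterol liver rests most on its scaling. All 20 hepatocyte markers were above 1 CPM in every liver, and all 10 adrenal cortex markers were in both adrenals. The Y-linked gene Eif2s3y had 1293 to 1680 counts in the livers but 0 in 1 adrenal (low sitosterol) and 2 in the other, so the male label was not borne out there. In bulk tissue, fewer cells of a type and less RNA per cell cannot be told apart.

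The 6 Cyp4a genes together had 337, 260, 1505 and 625 TPM in the livers, in diet order. The ergosterol liver stood highest and the high sitosterol liver lowest. The makeup differed between livers as well. The Cyp4a12 pair gave 86.8%, 50.9%, 26.5% and 16.1% of Cyp4a TPM in diet order. Cyp4a14 gave 1.52%, 10.2%, 32.2% and 41.6% in the same order, and Cyp4a10 gave 8.69%, 35.6%, 38.6% and 37.5%. By TPM, Cyp4a12a led in the low sitosterol liver, Cyp4a10 in the high sitosterol and ergosterol livers and Cyp4a14 in the stigmasterol liver. The lead of Cyp4a10 depended on the measure. By estimated counts Cyp4a12a led in the high sitosterol liver (9038 against 8046 for Cyp4a10). Cyp4a14 led by counts in the ergosterol liver (45052 against 44859 for Cyp4a10). Cyp4a10 and Cyp4a12a also belong to groups of close copies whose split is uncertain (above).

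**Figure D2:**
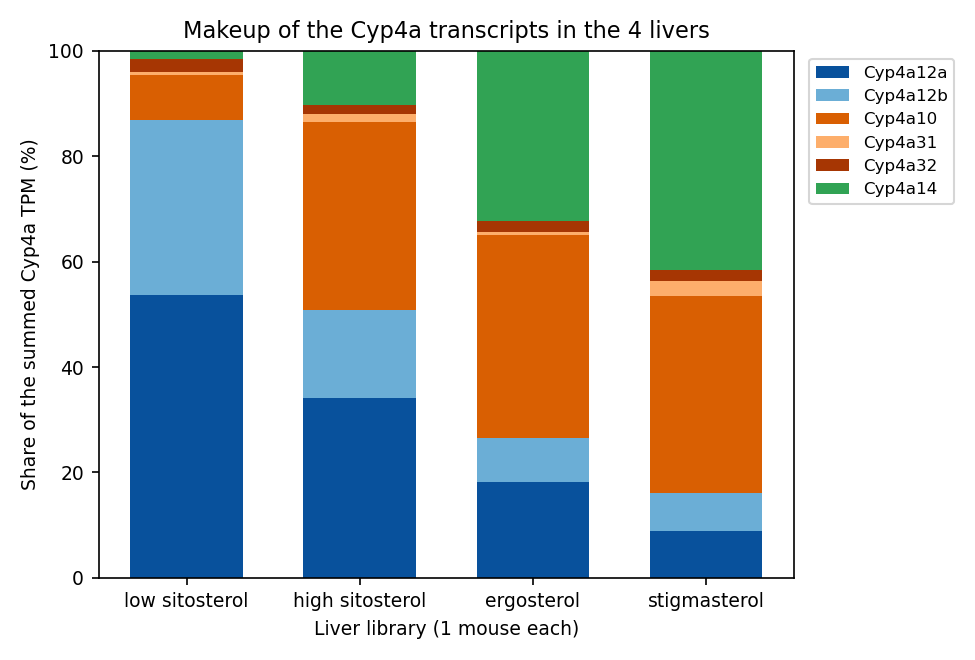
Share of the summed Cyp4a TPM (y axis, percent) taken by each of the 6 Cyp4a genes in the 4 livers (x axis, 1 mouse each). The blue Cyp4a12 pair takes 86.8% in the low sitosterol liver and 16.1% in the stigmasterol liver, while the green Cyp4a14 takes 1.52% and 41.6%.

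Cyp4a14 and Cyp4a10, the Cyp4a genes best known as PPARA targets, stood higher in each of the other 3 livers than in the low sitosterol liver. Cyp4a14 was at 5.13, 26.5, 485 and 260 TPM in diet order. Its estimated counts were 577, 2802, 45052 and 25713. It thus went from the second lowest member in the low sitosterol liver to the highest in the stigmasterol liver. Its log2 ratio of scaled CPM to low sitosterol was 2.10 (1.97 to 2.23) with high sitosterol, 6.16 (6.05 to 6.29) with ergosterol and 4.74 (4.62 to 4.86) with stigmasterol. Among 13378 analysed genes it ranked 346, 21 and 175 from the highest ratio in these comparisons.

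Cyp4a10 was at 29.3, 92.6, 580 and 234 TPM in diet order. The order of the 4 livers was the same as for Cyp4a14, over a narrower span. Its log2 ratios to low sitosterol were 1.38 (1.32 to 1.45), 3.92 (3.86 to 3.97) and 2.08 (2.03 to 2.14), and its ranks were 767, 42 and 1325.

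Cyp4a31 and Cyp4a32, the close copies of Cyp4a10, stayed low and did not move together. Cyp4a31 was at 1.81, 3.88, 8.79 and 17.7 TPM in diet order, highest in the stigmasterol liver. Its log2 ratios were 0.86, 1.82 and 2.40, of which the ergosterol and stigmasterol ratios were called higher. Cyp4a32 was at 8.27, 4.62, 31.7 and 12.5 TPM, highest in the ergosterol liver and lowest in the high sitosterol liver. Its log2 ratios were -1.11, 1.54 and -0.34, of which the first was called lower and the second higher. Total-count and TPM scaling ended the call of the first (-0.92 and -0.83). The sign of the third depends on scaling (0.36 with total counts, 0.59 as TPM). Summed with Cyp4a10, which removes the split between copies, the group gave 1.17, 3.67 and 1.93, called higher in all 3 comparisons.

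The Cyp4a12 genes had another pattern than Cyp4a10 and Cyp4a14. Elsewhere in the cluster, Cyp4a32 (-1.11, 1.54 and -0.34) and Cyp4b1 (-0.25, 0.53 and -0.23) also had lower ratios with high sitosterol and stigmasterol. Of these, the high sitosterol and ergosterol ratios of Cyp4a32 were called. Cyp4a12a was at 181, 88.4, 273 and 55.7 TPM in diet order. Cyp4a12b was at 111, 43.7, 126 and 44.7 TPM. Both copies were thus high in the low sitosterol and ergosterol livers and low in the high sitosterol and stigmasterol livers. Their summed log2 ratio to low sitosterol was -1.41 (-1.44 to -1.38) with high sitosterol, 0.05 (0.03 to 0.08) with ergosterol and -2.47 (-2.499 to -2.432) with stigmasterol. Each copy on its own was called lower in the high sitosterol and stigmasterol livers (Cyp4a12a -1.30 and -2.62, Cyp4a12b -1.62 and -2.24) and neither was called in the ergosterol liver (0.20 and -0.21).

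**Figure D3:**
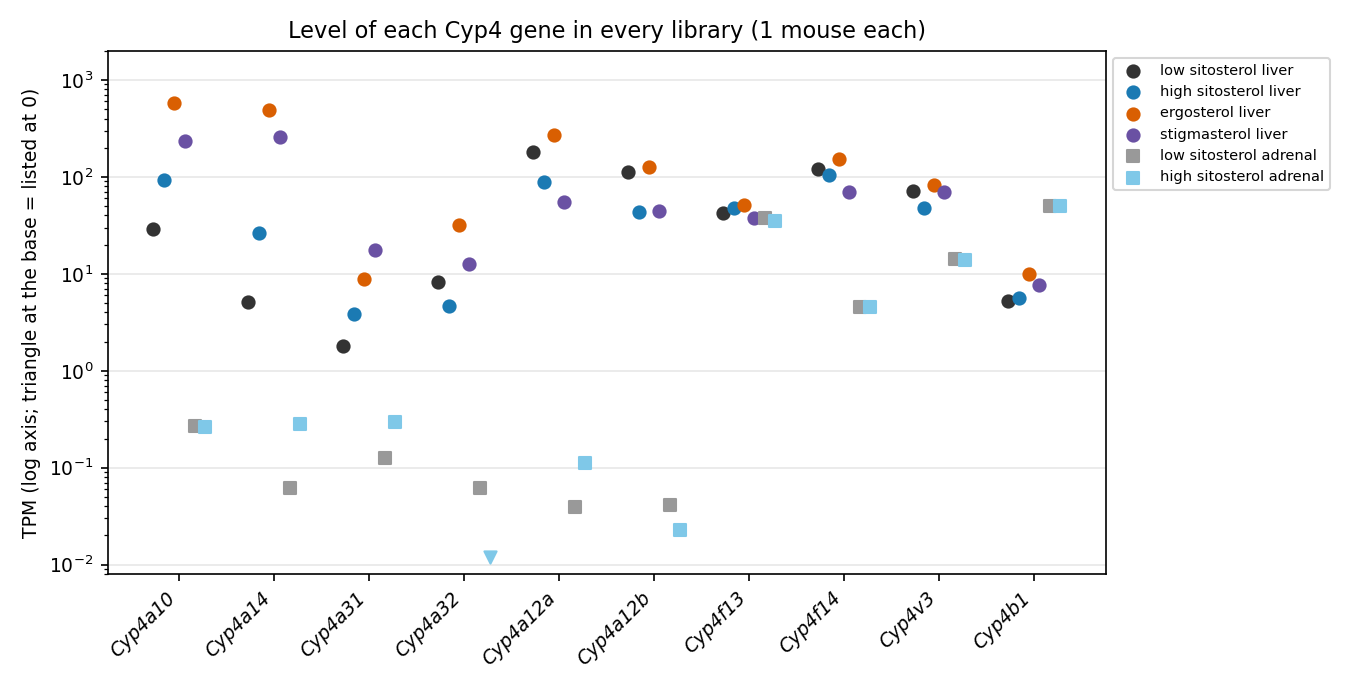
TPM of each of the 10 genes (y axis, log scale) in the 4 livers (circles) and 2 adrenals (squares), 1 mouse each, with a triangle at the base for a gene listed at 0. Cyp4a14 spans 5.13 to 485 TPM over the livers while Cyp4f13 spans 37.9 to 50.8, and Cyp4b1 is the gene that stands higher in the adrenals, at 50.2 and 50.3, than in any liver.

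The eicosanoid-directed Cyp4f genes and Cyp4v3 spanned less over the livers than the Cyp4a genes. In scaled CPM the span was 3.31-fold for Cyp4f14, 2.10-fold for Cyp4f13 and 1.96-fold for Cyp4v3. The narrowest Cyp4a span was 4.72-fold, for Cyp4a12b. Cyp4f14, which hydroxylates leukotriene B4, was at 121, 104, 153 and 69.1 TPM in diet order. Cyp4f13 was at 41.98, 48.0, 50.8 and 37.9 TPM, and Cyp4v3 was at 71.7, 47.6, 81.9 and 69.5. The log2 ratio of Cyp4f14 was -0.49, -0.06 and -1.73 in the 3 comparisons with low sitosterol, and that of Cyp4f13 was -0.22, -0.07 and -1.07. Both were therefore called lower in the stigmasterol liver. These calls ended when ratios were taken from TPM (-0.80 for Cyp4f14 and -0.15 for Cyp4f13) or scaled so that the hepatocyte markers had a median of 0 (-0.80 and -0.15). Cyp4v3 had ratios of -0.86, -0.21 and -0.97, none of them called. Its stigmasterol ratio came to -1.02, a call, with DESeq2 size factors. Cyp4b1 stayed low in every liver, at 5.27, 5.69, 9.99 and 7.64 TPM, with ratios of -0.25, 0.53 and -0.23 that were not called.

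The members called in each comparison were read against all analysed genes. Of all genes, 13.0% were called in the high sitosterol comparison (8.66% higher and 4.30% lower), where 2 members were called higher (Cyp4a10, Cyp4a14) and 3 lower (Cyp4a12a, Cyp4a12b, Cyp4a32). The median member ratio there was -0.37, against -0.05 over all genes. In the ergosterol comparison 11.9% of all genes were called (6.03% higher and 5.82% lower), and 4 members (Cyp4a10, Cyp4a14, Cyp4a31, Cyp4a32) were higher and 0 lower, with a median of 0.36 against 0.02. In the stigmasterol comparison 29.4% of all genes were called (21.6% higher and 7.80% lower), and 3 members were higher (Cyp4a10, Cyp4a14, Cyp4a31) and 4 lower (Cyp4a12a, Cyp4a12b, Cyp4f13, Cyp4f14), with a median of -0.65 against 0.08. These 3 comparisons share the low sitosterol liver, so they are not separate evidence of 1 pattern.

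**Figure D4:**
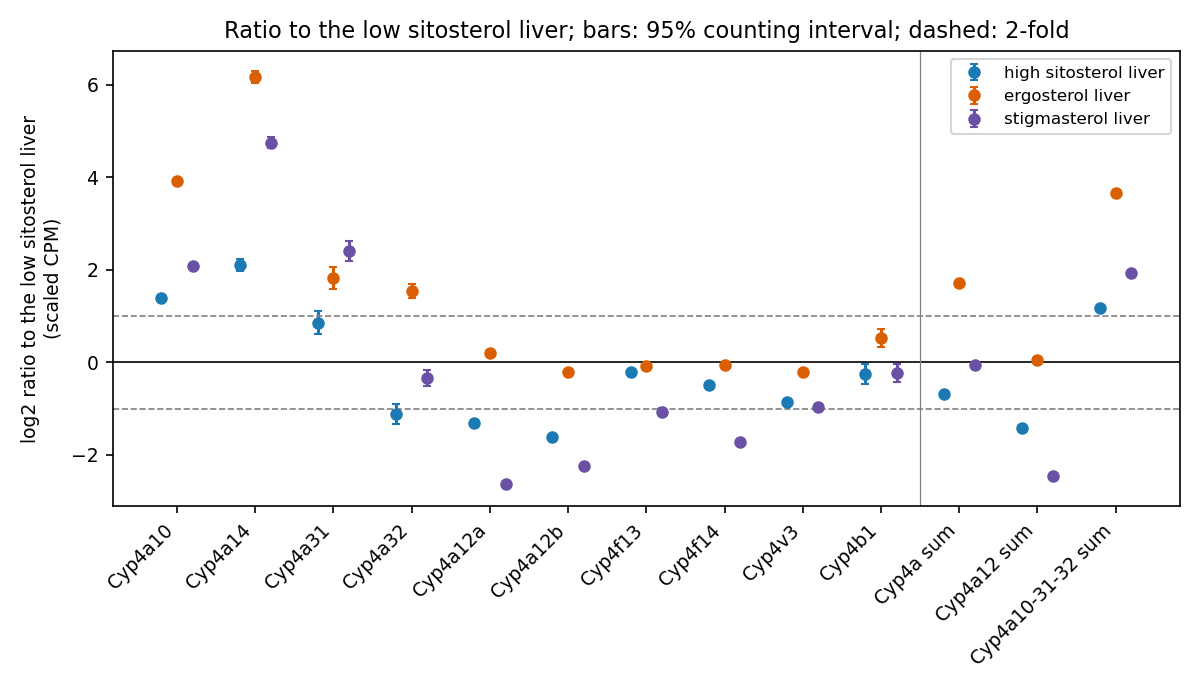
log2 ratio of scaled CPM to the low sitosterol liver (y axis) for each gene and for 3 sums (x axis) in the 3 other livers, with bars for the 95% counting interval and dashed lines at 2-fold. Cyp4a14 lies at 2.10, 6.16 and 4.74, and the Cyp4a12 sum at -1.41, 0.05 and -2.47, so the Cyp4a sum of the stigmasterol liver lies at -0.06.

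The summed Cyp4a counts joined these opposite differences. Their log2 ratio to low sitosterol was -0.69 (-0.72 to -0.67) with high sitosterol, 1.72 (1.70 to 1.74) with ergosterol and -0.06 (-0.08 to -0.04) with stigmasterol. The sum was called higher in the ergosterol liver alone of these 3. The sign of the stigmasterol value depends on scaling: it was 0.63 by total counts and 0.89 as TPM. Relative to the median of all analysed genes it was -0.14, a difference that a scaling of whole libraries cannot change, and -0.04 as TPM.

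The other 3 livers were also compared with each other. These ratios do not use the counts of the low sitosterol liver, but the TMM factors and the 1 CPM filter come from all livers. The sterols differ in structure: compared with sitosterol, stigmasterol has an added double bond in its side chain, and ergosterol has a methyl where sitosterol has an ethyl side-chain branch, as well as more double bonds. Doses were not given, so the libraries are not matched by dose. Between ergosterol and high sitosterol 15.1% of genes were called (6.18% higher and 8.96% lower), and 5 members were higher in ergosterol and 0 lower. Cyp4a14 led with a log2 ratio of 4.06 (4.01 to 4.12), followed by Cyp4a32 at 2.65, Cyp4a10 at 2.54, Cyp4a12a at 1.499 and Cyp4a12b at 1.40.

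Between stigmasterol and high sitosterol 22.0% of genes were called (16.4% higher and 5.60% lower), and 2 members were higher (Cyp4a14 2.64, Cyp4a31 1.54) and 2 lower (Cyp4a12a -1.32, Cyp4f14 -1.24). Under hepatocyte marker scaling both lower calls ended (-0.39 and -0.31), and Cyp4a10 and Cyp4a32 were called higher (1.63 and 1.70). Between ergosterol and stigmasterol 26.5% of genes were called (7.13% higher and 19.4% lower), and 7 members were higher in ergosterol and 0 lower. The ratios were 2.82 for Cyp4a12a, 2.02 for Cyp4a12b, 1.88 for Cyp4a32, 1.83 for Cyp4a10, 1.67 for Cyp4f14, 1.42 for Cyp4a14 and 1.00 for Cyp4f13. The calls of Cyp4a14, Cyp4f14 and Cyp4f13 ended under hepatocyte marker scaling (0.66, 0.91 and 0.24). Cyp4a31, at -0.58 and not called here, was called lower in ergosterol by total counts (-1.11), under hepatocyte marker scaling (-1.34) and as TPM (-1.005).

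Markers of the cells present are given beside these results. The summed scaled CPM of the 20 hepatocyte markers, none of them at 0, was 194305, 221182, 182049 and 101815 in diet order. In the stigmasterol comparison 8 of the 20 were called lower and 0 higher, with a median log2 ratio of -0.92. With high sitosterol 0 of the 20 were called (median -0.09), and with ergosterol 1 was higher and 0 lower (median -0.11). Among all genes, 6.03% were called higher and 5.82% lower in the ergosterol comparison, and 21.6% and 7.80% in the stigmasterol comparison. The 10 cholangiocyte markers, bile duct genes that were all detected, summed to 958 in the stigmasterol liver and 56.3 to 82.1 in the other livers, and the 10 stellate cell and matrix markers to 1069 against 205 to 261. The 18 macrophage markers, none at 0, summed to 469, 1292, 684 and 955 in diet order. Of the 10 adrenal cortex markers, 8, 4, 2 and 6 reached 1 CPM, with a sum of 239 in the low sitosterol liver and 67.8 to 104 in the others. Cyp11b2 was at 0 in the other 3 livers, and Mc2r was at 0 in the high sitosterol and ergosterol livers. The 10 adipocyte markers summed to 23.4, 48.6, 69.6 and 110 in diet order, and 4 of the 5 analysed were higher in the ergosterol and in the stigmasterol liver. Lep, Retn and Ucp1 were at 0 in those livers and in the high sitosterol liver. The 8 lung epithelium markers summed to 24.1 in the stigmasterol liver and 1.32 to 2.33 in the others, with Scgb3a2 and Sftpc at 0 in all 4 livers. The 8 neutrophil markers summed to 10.1, 11.3, 3.25 and 12.3, and 4 of the 5 analysed were lower in the ergosterol liver. Ly6g was at 0 in every liver but stigmasterol, and Retnlg in the ergosterol liver. The part of these cell types in the Cyp4 ratios was not tested, apart from the hepatocyte scaling. Under that scaling Cyp4a14, Cyp4a10, Cyp4a31 and both Cyp4a12 genes kept their calls against low sitosterol.

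The other PPARA targets, the nuclear receptors and the later steps of the pathway were then described by the lists they belong to. Of 32 PPARA targets outside the Cyp4 family, 1 was higher and 1 lower in the high sitosterol liver (median -0.26), 12 higher and 0 lower in the ergosterol liver (median 0.84), and 10 higher and 3 lower in the stigmasterol liver (median -0.02). Of all genes, 13.0%, 11.9% and 29.4% were called in these comparisons, and the list lay below that share with high sitosterol. Acot3, a peroxisomal acyl-CoA thioesterase, had 0.513, 0.626, 22.4 and 5.97 scaled CPM in diet order. That is the order of Cyp4a14, but without its difference between the first 2 livers. Acot1 and Acot2, the cytosolic and mitochondrial thioesterases, stood at 3.04 and 1.85 for ergosterol and 2.86 and 3.32 for stigmasterol on the log2 scale. Cidec, a lipid droplet protein that is also an adipocyte marker, stood at 1.53 and 3.48. In the stigmasterol liver Fabp1, the fatty acid carrier of hepatocytes, was lower (-2.39), as was Cpt1b (-1.11), a mitochondrial fatty acid importer. The high sitosterol liver, where Cyp4a14 and Cyp4a10 were called higher, thus had 1 other PPARA target called higher, the fatty acid transporter Cd36 (1.35), and Vnn1 called lower (-1.65).

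Ppara itself stood at 17.0, 17.5, 67.0 and 17.0 scaled CPM, higher in the ergosterol liver alone (log2 ratio 1.98). Of the 24 receptors and co-regulators linked to Cyp4a control, 1 was higher and 1 lower in the high sitosterol liver, 5 higher and 1 lower in the ergosterol liver, and 1 higher and 4 lower in the stigmasterol liver. Of all genes, 13.0%, 11.9% and 29.4% were called in these comparisons, a share that the list did not exceed with high sitosterol or stigmasterol. By direction, 21.6% of all genes were higher and 7.80% lower with stigmasterol, so the list leaned lower there. Its median was -0.20 against 0.08 over all genes. Nr1i3, the xenobiotic receptor CAR, had 30.1, 60.9, 113 and 9.12 scaled CPM. Bcl6, a repressor that opposes PPARA at fatty acid genes and takes part in male-specific liver expression, had 15.4, 7.56, 52.9 and 17.8. Ghr, the growth hormone receptor, had 469, 330, 414 and 150, lower in the stigmasterol liver (-1.64), where hepatocyte markers were lower as well.

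Of the 24 genes that carry omega-hydroxylated fatty acids onward, 1 was higher and 1 lower in the high sitosterol liver, 7 higher and 0 lower in the ergosterol liver, and 3 higher and 5 lower in the stigmasterol liver. With 13.0%, 11.9% and 29.4% of all genes called, the high sitosterol and stigmasterol counts, both directions together, were near or below these shares. By direction, 21.6% of all genes were higher and 7.80% lower with stigmasterol, so the list leaned lower there. Its median was -0.25 against 0.08 over all genes. This list holds 6 genes of the PPARA list, among them Ehhadh and Acaa1b. Ehhadh, the peroxisomal bifunctional enzyme used for dicarboxylic acids, had 161, 164, 559 and 660 scaled CPM in diet order. Acaa1b, a peroxisomal thiolase, had 741, 746, 3510 and 1635. Abcd2, a peroxisomal importer of fatty acyl-CoA, was higher in each of the 3 other livers (1.31, 1.88 and 1.07). The aldehyde dehydrogenase Aldh3a2, which oxidises fatty aldehydes, was called higher in the ergosterol liver (1.31), and the alcohol dehydrogenases Adh4 (-1.21) and Adh7 (-1.79) were lower in the stigmasterol liver.

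Of 8 genes that supply P450 enzymes with electrons or heme or break heme down, 1, 2 and 2 were called in the high sitosterol, ergosterol and stigmasterol comparisons. By direction these were 1 higher and 0 lower, 1 higher and 1 lower, and 0 higher and 2 lower. Of all genes, 13.0%, 11.9% and 29.4% were called, and 8 genes are too few to read against such shares. The list median with stigmasterol was -0.67 against 0.08 over all genes, with 7.80% of all genes lower. Alas1, the rate-limiting enzyme of heme synthesis, stood at 952, 818, 193 and 224 scaled CPM, lower in the ergosterol and stigmasterol livers, where Cyp4a10 and Cyp4a14 stood highest. Cyb5r3, a reductase of cytochrome b5, was lower in the stigmasterol liver (-1.59). Hmox1, which breaks heme down, was higher in the high sitosterol liver (1.81).

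**Figure D5:**
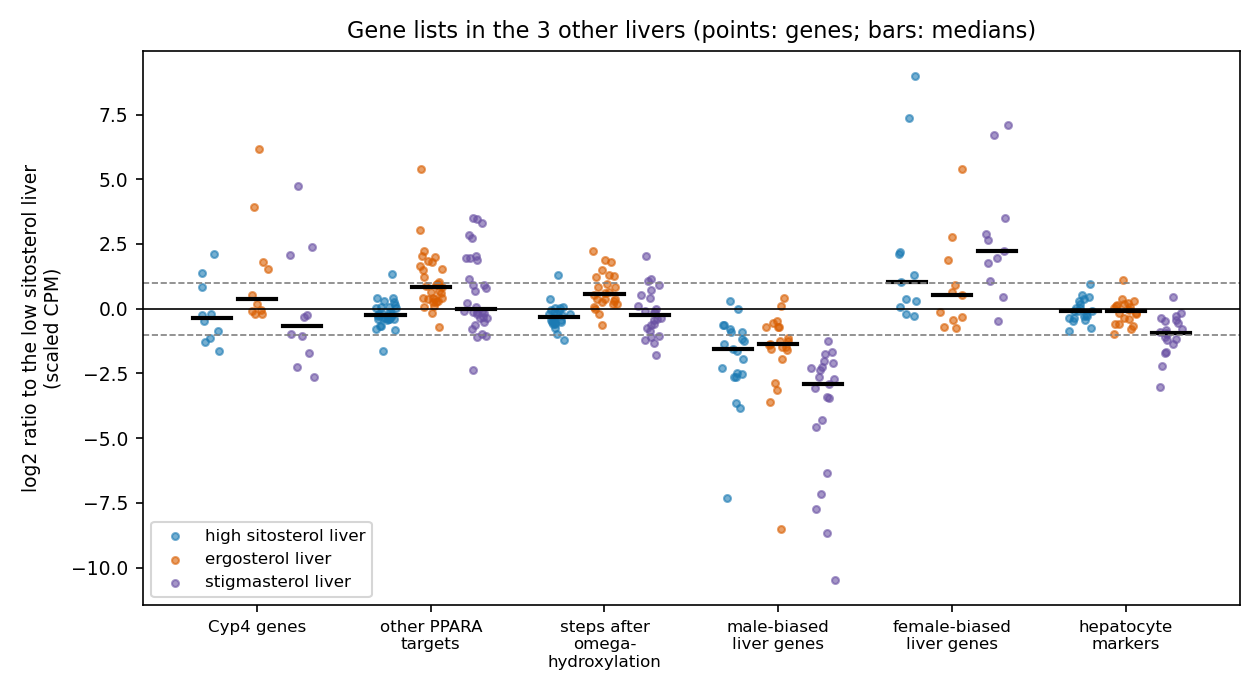
log2 ratio of scaled CPM to the low sitosterol liver (y axis) of every analysed gene (points) in 6 gene lists (x axis) for the 3 other livers, with black bars at list medians and dashed lines at 2-fold. PPARA targets outside the Cyp4 family have medians of -0.26, 0.84 and -0.02, and male-biased genes lie below 0 at the median in all 3 livers.

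Since Cyp4a12a is a male-biased gene and Cyp4a10 and Cyp4a14 are known to be higher in female liver, lists of sex-biased liver genes without Cyp4 members were set beside them. All 4 livers carried Y-linked transcripts (above). Of 21 male-biased genes, 14 were lower and 0 higher in the high sitosterol liver, 14 and 0 in the ergosterol liver, and 21 and 0 in the stigmasterol liver, with medians of -1.56, -1.37 and -2.90. Hsd3b5, a steroid enzyme of male liver, had 368, 58.4, 132 and 0.895 scaled CPM. The Cyp4a12 sum was called lower in the high sitosterol and stigmasterol livers and differed by 0.05 in the ergosterol liver, where Mup7 (-1.92) and Hsd3b5 (-1.48) were lower. Of 11 analysed female-biased genes, 6, 3 and 9 were higher and 0 lower in the same order. Among all genes, 8.66%, 6.03% and 21.6% were called higher and 4.30%, 5.82% and 7.80% lower in these comparisons. The female-biased list shares Acot3 with the PPARA targets, Abcd2 with the oxidation list and Cux2 with the receptors and co-regulators. Cyp2a4, a steroid hydroxylase of female liver, had 1.17, 198, 0.853 and 160 scaled CPM, and Sult1e1, an estrogen sulfotransferase, had 0.0489, 31.05, 0.404 and 6.31. Both were high in the 2 livers where Cyp4a12 was low.

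Clock genes, a list of 14 chosen after values were seen, were counted in the same way. In the high sitosterol, ergosterol and stigmasterol comparisons 3, 4 and 4 were higher and 1, 4 and 6 lower, where 13.0%, 11.9% and 29.4% of all genes were called. Dbp, a clock output factor, had 126, 168, 6.17 and 8.13 scaled CPM in diet order, and Npas2, a clock activator, had 0.366, 0.237, 3.86 and 6.20. The livers with low Dbp were those with the highest Cyp4a14 and Cyp4a10. Their part in the Cyp4 ratios was not tested.

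Further enzymes of the family and of eicosanoid metabolism showed other patterns. In the high sitosterol, ergosterol and stigmasterol comparisons 13.0%, 11.9% and 29.4% of all genes were called. Of 10 other Cyp4 genes, 5 were analysed, and 3, 0 and 2 were higher in the high sitosterol, ergosterol and stigmasterol livers with 0 lower. Cyp4f18, the leukotriene hydroxylase of neutrophils and macrophages, had 0.708, 1.66, 0.382 and 7.73 scaled CPM, and Cyp4f16 had 3.27, 9.48, 1.93 and 13.6. Both were highest in the stigmasterol liver and lowest in the ergosterol liver, as was the sum of the neutrophil markers (above). That sum differed little between the stigmasterol (12.3), high sitosterol (11.3) and low sitosterol (10.1) livers. The part of neutrophils in the Cyp4f18 and Cyp4f16 values was not tested. Cyp4f15, a liver enzyme, had 96.9, 143, 148 and 97.4 and was not called. Of 18 analysed eicosanoid enzymes outside the family, 2, 4 and 4 were higher and 2, 0 and 10 lower. The arachidonic acid epoxygenases Cyp2c37 (158, 28.8, 207 and 4.59 scaled CPM), Cyp2c50 and Cyp2c54 stood lowest in the stigmasterol liver, at -5.10, -4.21 and -4.93. These genes belong to a family of close copies, so their split is uncertain.

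The genes closest to a member in pattern were found by the root mean square difference of centred log2 scaled CPM over the 4 livers, among 8534 genes. For Cyp4a14 these were Acot3 (0.67), Myc (0.98), Gadd45g (1.07), Cyp4a10 (1.09) and Rnf125 (1.12). For Cyp4a12a they were Sucnr1 (0.10), Acss2 (0.17), Acacb (0.22), Npr2 (0.24) and Cyp8b1 (0.25). Sucnr1, the succinate receptor, had 30.7, 13.3, 33.9 and 5.75 scaled CPM, and Acss2, an acetyl-CoA synthetase, had 436, 188, 393 and 72.3. Cyp4f14 lay within 0.04 to 0.07 of Klkb1, Serpina1d, Il1rap, Slc2a2 and Mug1, of which Klkb1, Serpina1d and Mug1 encode plasma proteins made by hepatocytes. Cyp4v3 lay within 0.04 to 0.06 of Pqlc1, Mtus1, Tfpi2, Tmem39a and Atg13. With 4 points that share their libraries and scaling, such likeness is a description only.

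In the adrenals the family was led by other members. Cyp4b1 was at 50.3 TPM in the low sitosterol adrenal and 50.2 in the high sitosterol adrenal, followed by Cyp4f13 at 37.7 and 34.8, Cyp4v3 at 14.2 and 13.8, and Cyp4f14 at 4.58 and 4.56. Each of these 4 genes was nearly equal in the 2 libraries. Their log2 ratios of high to low sitosterol were 0.03 (-0.06 to 0.11), -0.10 (-0.21 to 0.00), -0.01 (-0.11 to 0.09) and 0.03 (-0.22 to 0.27). In the adrenal comparison 6.12% of all analysed genes were called (3.82% higher and 2.31% lower), and 0 of these 4 members were. The same diets in liver gave -0.25, -0.22, -0.86 and -0.49 for the 4 genes in that order. With 1 library per cell of the design, the difference between tissues was not tested. The livers carried Y-linked transcripts and the adrenals had almost none (above), so tissue and this difference cannot be told apart.

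The 6 Cyp4a genes were under 1 CPM in both adrenals and were not analysed there. Their estimated counts summed to 33 and 72 (low, then high sitosterol), or 0.602 and 0.981 TPM against at least 260 in any liver. The tissues also differ in Y-linked transcripts (above), which limits this comparison. Cyp4a32 was listed at 0 in the high sitosterol adrenal, which allows up to 0.0624 CPM. Without the limit of 1 CPM, Cyp4a14 (4 and 22 counts) and Cyp4a31 (8 and 23 counts) would be called higher with high sitosterol. Their log2 ratios were 2.09 (0.67 to 4.23) and 1.24 (0.08 to 2.67), and a call on so few counts has no replicate behind it. Cyp4a10 had 14 and 17 counts.

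The 10 kidney tubule markers summed to 0.630 and 6.25 scaled CPM in the adrenals (low, then high sitosterol). In the low sitosterol adrenal 0 of 10 reached 1 CPM and Kap, Umod and Slc12a1 were at 0, while in the high sitosterol adrenal 1 of 10 did and Kap alone was at 0. The 20 hepatocyte markers summed to 1169 and 576, with none at 0 and 13 and 11 at 1 CPM or more. The 10 adipocyte markers, all detected, summed to 4098 and 1693. The part of kidney, liver and fat transcripts in the adrenal Cyp4a counts was not tested. Of 30 PPARA targets analysed in adrenal, 0 were higher and 5 lower with high sitosterol (median -0.65), among them Cidec (-1.54) and Acaa1b (-1.82). Among all genes analysed in adrenal, 3.82% were called higher and 2.31% lower.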

How the data were processed

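Liver and adrenal RNA was isolated with a Qiagen RNeasy kit and made into TruSeq RNA Library Prep Kit v2 libraries, per the labels' protocols. The authors deposited estimated counts and TPM per gene symbol. Per the submitters' processing notes, the tools were kallisto 0.43.1, HISAT2 2.0.5 and Trimmomatic 0.33, with build mm10 and no roles stated. The annotation, and how transcripts were joined to genes, is not given in the sources used here. Estimated counts (39.1% to 49.3% not whole) were rounded, and 1 row that names no gene was left out. Scaling used TMM (edgeR 4.0.16, R 4.3.3) within tissue. Genes that reached 1 CPM in any library of a tissue were analysed (13378 in liver, 14224 in adrenal). log2 ratios used a prior count of 0.5, with exact conditional binomial (Clopper-Pearson) 95% intervals, and the floor for a count of 0 was 3 counts. Intervals cover counting error only and hold no term for differences between mice. They also treat reads as independent molecules, which copied reads are not. The procedure was tested on simulated data. There was no test and no p-value.

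The 10 members, the 8 pathway lists and the 11 marker lists were chosen with earlier results of these data known. Beside the members, the text names up to 4 genes of each list with the largest ratio to low sitosterol among genes at 10 CPM or more, and for 4 members the 5 genes closest in pattern. Cd36, Vnn1, Fabp1, Cpt1b, Aldh3a2, Adh4, Dbp and Npas2 were chosen after their values were seen. Some list members are not reported here by name. Coordinates and sequences are from GENCODE M21 on GRCm38, in which 32158 of 33639 symbols matched. Stretches of 60 bases were compared without gaps within each group.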

Additional observations from a re-analysis of the deposited data

How the results depend on the processing

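No paired analysis was possible because each group holds 1 library. Of the 32 called member ratios, 32 kept their call with DESeq2 size factors, 32 with TMM from the 2 libraries compared, 31 with a prior count of 5, 26 with total counts, 25 with hepatocyte marker scaling and 25 as log2(TPM + 0.1), and none was called in the opposite direction. Total counts, hepatocyte marker scaling and TPM raised the median of all genes in the stigmasterol comparison from 0.08 to 0.77, 1.00 and 0.94, and the share of calls that were higher from 73.5% to 92.9%, 95.4% and 95.2%. Some uncalled ratios near 0 changed sign as TPM: in the ergosterol comparison Cyp4a12b, Cyp4f13, Cyp4f14 and Cyp4v3 came to 0.18, 0.28, 0.34 and 0.19, Cyp4f13 and Cyp4b1 came to 0.19 and 0.11 with high sitosterol, and Cyp4b1 to 0.53 with stigmasterol. For the ergosterol comparison the share of higher calls went from 50.9% to 65.1% by total counts and 80.4% as TPM, and for high sitosterol from 66.8% to 78.4% and 81.5%.

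The log2 ratio of the Cyp4a sum by total counts, hepatocyte marker scaling and TPM was -0.50, -0.60 and -0.37 for high sitosterol, 1.88, 1.83 and 2.16 for ergosterol and 0.63, 0.86 and 0.89 for stigmasterol against low sitosterol. It was 2.38, 2.35 and 2.53 for ergosterol against high sitosterol (main value 2.41), 1.13, 1.56 and 1.27 for stigmasterol against high sitosterol (0.63) and 1.25, 1.02 and 1.27 for ergosterol against stigmasterol (1.78). DESeq2 size factors gave -0.11 for stigmasterol against low sitosterol, 0.57 against high sitosterol and 1.84 for ergosterol against stigmasterol. TMM from the 2 libraries gave -0.64 for high against low sitosterol and 0.58 for stigmasterol against high sitosterol. The cause of these shifts was not tested beyond the change of scale.

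Against low sitosterol, the members called at 4-fold were 1 with high sitosterol, 2 with ergosterol and 5 with stigmasterol, where 4.18%, 3.24% and 12.8% of all genes were called. They were 3 for ergosterol against high sitosterol (3.97% of all genes), 1 for stigmasterol against high sitosterol (8.61%) and 2 for ergosterol against stigmasterol (11.9%). At 1.5-fold they were 8 for ergosterol and 8 for stigmasterol against high sitosterol, where 32.4% and 38.7% of all genes were called. Without the filter on low counts 2 members were called in adrenal, and 7.66% of all genes. Fewer than 100 counts lie behind each Cyp4a value in adrenal, and the interval of Cyp4a31 there runs from 0.08 to 2.67 on the log2 scale.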
